A study of Mus musculus with 6 samples.

Results

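The 60 genes described here make and trim the sugar chains of the cell surface and matrix, namely proteoglycans and hyaluronan. They were chosen by symbol from the 17491 genes of the count table: the syndecans, glypicans, perlecan (Hspg2) and versican (Vcan) as core proteins, the enzymes that start, extend and sulfate heparan sulfate and chondroitin sulfate chains, the hyaluronan synthases and the hyaluronidases. The rule itself uses symbols and no measured value, so it also takes in Chst sulfotransferases of other glycans, such as Chst2. RNA had been sequenced from osteoblasts grown out of wildtype mouse bone marrow mesenchymal stem cells and harvested on day 7 of osteogenic culture. Dexamethasone, ascorbic acid and β-glycerophosphate were in the medium of both groups. A control group (3 libraries) was set against a group treated with verapamil, a blocker of L-type calcium channels (3 libraries). The labels give neither dose nor length of exposure. Nor do they say whether replicates came from different cultures or mice. The p-values therefore reflect only how far these 6 libraries differ, which may be technical.

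A proteoglycan is a core protein carrying glycosaminoglycan chains. Xylosyltransferases attach the first sugar to a serine of the core, and the chain then becomes heparan sulfate, built by the exostosins, or chondroitin sulfate, built by the chondroitin synthases. Sulfotransferases and epimerases modify the chain as it grows, which sets how it holds growth factors such as FGFs, BMPs and Wnts, while hyaluronan has no core protein and is spun out directly at the plasma membrane by its synthases. In bone, heterozygous loss of EXT1 or EXT2 is the known cause of hereditary multiple exostoses.

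The libraries held 18.2 M to 21.7 M estimated reads, and between 15737 and 15939 genes were detected in each. Markers of osteoblasts and of macrophages were both abundant in them. The summed level of 10 osteoblast markers was 44900 to 57260 counts per 1000000 (CPM) in control and 27260 to 27380 CPM in verapamil libraries, with 9 of 10 lower. The 16 macrophage and monocyte markers summed to 9710 to 12170 CPM in control and 17400 to 19570 CPM in verapamil libraries, with 13 of 16 higher. The 16 hypoxia response genes, of which 13 were lower, summed to 6242, 9698 and 3977 CPM in control replicates 1, 2 and 3 and to 2780 to 3291 CPM in verapamil libraries. Chondrocyte markers, 6 of 6 tested lower, summed to 808 to 1133 CPM in control and 358 to 447.5 CPM in verapamil libraries. Endothelial markers (3 of 7 lower, 1 higher) summed to 56.8 to 59.7 CPM and 48.4 to 49.6 CPM, adipocyte markers (1 of 6 tested lower, 2 higher) to 576.5 to 817 CPM and 818 to 982 CPM, and osteoclast markers (1 of 4 tested lower, 1 higher) to 289 to 305 CPM and 271 to 298 CPM. Ctsk, at 224 to 271 CPM, made up most of the osteoclast sum, while Calcr, Oscar, Dcstamp and Ocstamp were too low to test. Col2a1 and Col11a1 made up most of the chondrocyte sum, while Acan, Col9a1 and Matn3 were too low to test. These sums therefore do not show that either cell type was present. Listed neutrophil, lymphocyte and mast cell markers summed to at most 1.65, 1.31 and 12.4 CPM in any library. The part of these differences in the results that follow was not tested. In bulk RNA, fewer cells of a type and less RNA per cell cannot be told apart.

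Among proteoglycan and hyaluronan genes that passed the test, more were lower than higher with verapamil. Of the 60 genes, 45 had enough reads to be tested, 22 fell, 2 rose and 21 did not pass, at an adjusted p under 0.05 in edgeR's quasi-likelihood test over all 13366 genes tested. Over those genes, 16.3% were lower and 15.4% higher (2180 and 2055), or 31.7% in all. Each count by class or list below has these shares as its background. The median log2 fold change of the tested members was -0.24, beside 0.01 for all genes tested. All 3 verapamil values lay below all 3 control values in 26 of the 45 (24.4% of all genes) and above them in 4 (25.2% of all genes), against 49.6% of all genes in either direction. The 15 untested genes stayed under 0.59 CPM in each library. With libraries scaled by their totals alone, 18 members were lower and 5 higher, and all genes tested split into 1615 lower and 2829 higher. Levels below are TMM-normalised CPM in replicates 1, 2 and 3, and differences are log2 fold changes of verapamil over control ± SE.

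**Figure D1:**
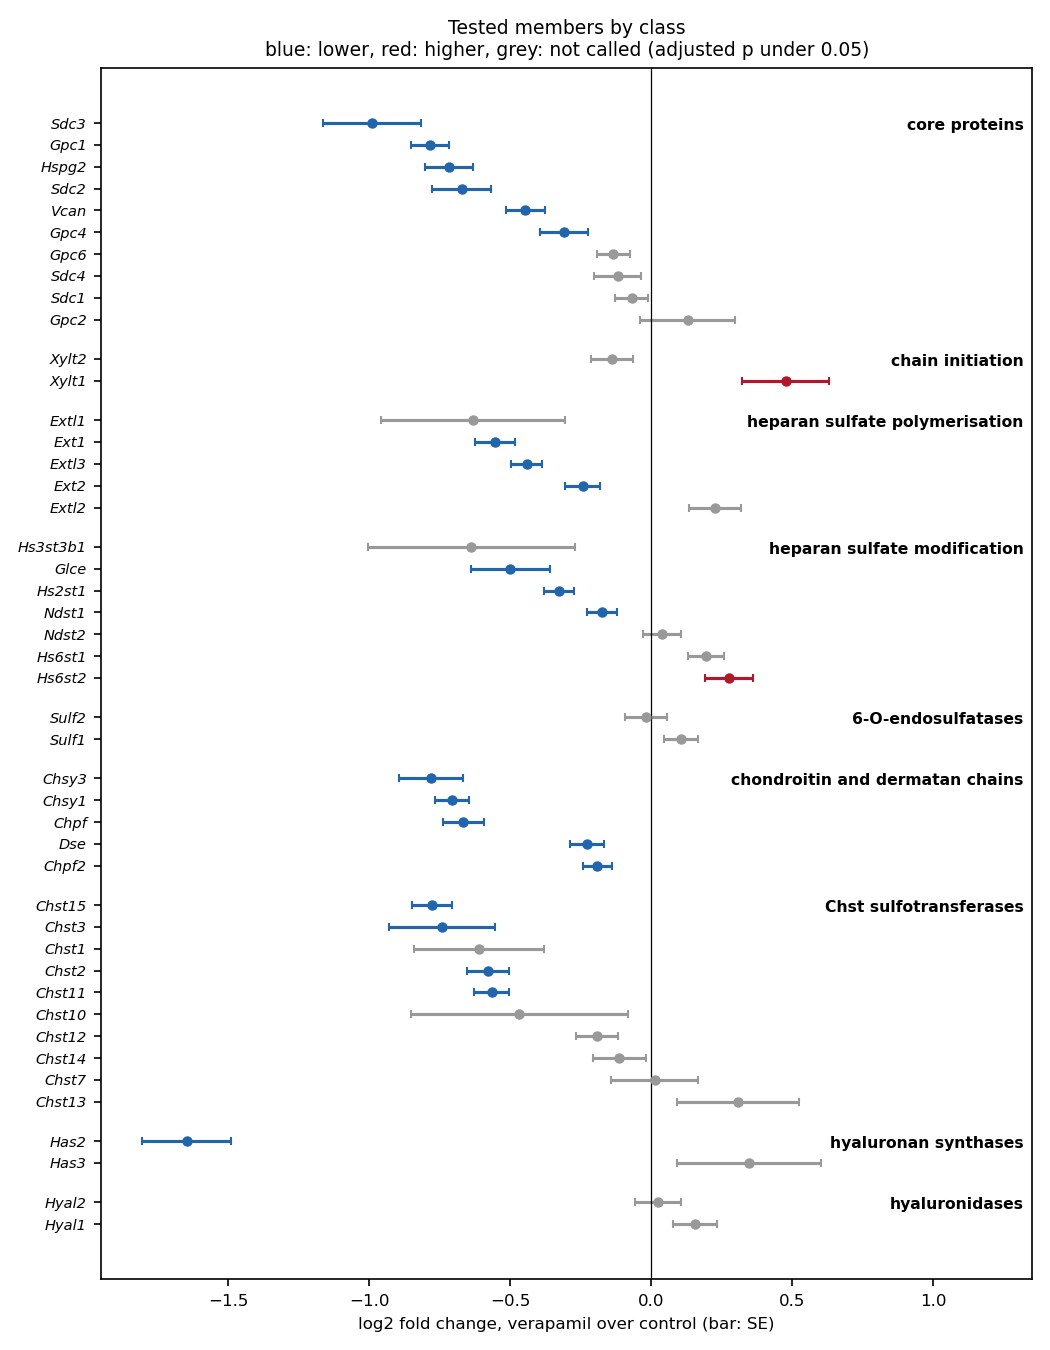
Log2 fold change of verapamil over control (x axis, bar: SE) for the 45 tested members (y axis), grouped by role. Blue points are lower, red points higher and grey points not past an adjusted p of 0.05. Has2 lies farthest from 0 at -1.65, and Xylt1 and Hs6st2 are the 2 red points.

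Upstream sequences were sought for Has2, Gpc1, Sdc3, Hspg2, Chst15 and Hs6st2, but none was available for Has2 and Gpc1. The sequences of the other 4 members are shown: 3 genes that fell (Sdc3, Hspg2 and Chst15) and 1 of the 2 that rose (Hs6st2). Each is the 250 bases before a RefSeq transcript start, in GRCm38.p6, 5′ to 3′ on the gene's own strand, at chr4:130792287-130792536 (plus strand), chr4:137468553-137468802 (plus), chr7:132317229-132317478 (minus) and chrX:51681603-51681852 (minus) in that order. The start used is the gene's own 5′ end for Sdc3, and lies 52 bases inside the gene for Hspg2, 103 for Hs6st2 and 6306 for Chst15, an internal start. Of all 52 windows of members, 36 had the bases after their start in a GENCODE transcript of the gene. Capitals mark GC boxes (GGGCGG) on either strand. CCAAT boxes, with those letters, are also in capitals. So are TATA boxes (TATAAA). Sdc3 held 3 GC boxes, Hspg2 5, Chst15 1 and Hs6st2 none, while Hs6st2 held 2 CCAAT boxes and 1 TATA box. ACGTG, the core of the hypoxia response element, was also searched and is not in these 4 windows.
Sdc3: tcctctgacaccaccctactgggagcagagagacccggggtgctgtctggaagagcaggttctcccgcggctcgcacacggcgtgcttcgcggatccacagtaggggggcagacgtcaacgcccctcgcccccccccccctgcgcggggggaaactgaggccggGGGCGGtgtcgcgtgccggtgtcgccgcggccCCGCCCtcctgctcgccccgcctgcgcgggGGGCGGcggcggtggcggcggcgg
Hspg2: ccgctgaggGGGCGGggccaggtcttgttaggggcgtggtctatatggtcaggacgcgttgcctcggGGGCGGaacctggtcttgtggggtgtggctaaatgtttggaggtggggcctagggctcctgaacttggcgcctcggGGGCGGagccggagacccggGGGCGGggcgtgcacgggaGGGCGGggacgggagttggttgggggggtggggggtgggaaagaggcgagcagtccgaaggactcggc
Chst15: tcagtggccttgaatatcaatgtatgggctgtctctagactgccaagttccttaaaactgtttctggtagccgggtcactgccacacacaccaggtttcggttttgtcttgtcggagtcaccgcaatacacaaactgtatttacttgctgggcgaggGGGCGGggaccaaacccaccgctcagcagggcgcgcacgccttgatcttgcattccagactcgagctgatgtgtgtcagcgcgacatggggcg
Hs6st2: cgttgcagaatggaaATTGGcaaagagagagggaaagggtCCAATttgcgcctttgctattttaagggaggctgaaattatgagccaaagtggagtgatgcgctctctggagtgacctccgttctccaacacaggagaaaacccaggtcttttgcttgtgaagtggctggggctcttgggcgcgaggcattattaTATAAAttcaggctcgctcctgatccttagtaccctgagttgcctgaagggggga

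Of the 60 members, 46 had such a window. Has2, Gpc1, Sdc2, Ext1, Extl3, Chsy3 and Ndst1 fell but had none, so the counts here leave them out. The shares over all windows include genes that were not tested. A GC box stood in 13 of 15 members that fell, in 15 of 18 tested members that did not pass and not in the 1 member that rose (Hs6st2), against 32.9% of 27025 windows, 1 per gene. The ACGTG core stood in 3 of 15 and 3 of 18 (16.6% of all windows), and the CCAAT box in 5 of 15 and 10 of 18 (34.5%). The AP-1 motif TGANTCA stood in none of either (6.87%), and the TATA box in 0 of 15 and 1 of 18 (13.0%). Median GC content was 68.4% for members that fell, 61.8% for those that did not pass and 52.0% for all windows.

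Sdc3 and Sdc2 fell among the syndecans, and Gpc1 and Gpc4 among the glypicans. Syndecans span the membrane and carry heparan sulfate, and Sdc3 (Entrez 20970, chromosome 4, 130792537 to 130826318 in GRCm38) was the most abundant of them per transcript length. It measured 1049, 1501 and 902 CPM in control and 573, 566 and 599 CPM in verapamil libraries, and the groups did not overlap. Its difference was -0.99 ± 0.17 (adjusted p = 0.00568), and -0.76 without control replicate 2. Sdc3 was highest in that library, as were the hypoxia, osteoblast and chondrocyte sums, whose part was not tested. Sdc2 (Entrez 15529, chromosome 15, 32920723 to 33034721) measured 318, 371 and 272 CPM against 194, 199.6 and 209 CPM (-0.67 ± 0.11, adjusted p = 0.00279). Here too every verapamil library lay below every control.

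The other two syndecans did not pass. Sdc1 measured 236, 255 and 248 CPM in control and 229, 232 and 243 CPM in verapamil libraries (-0.07 ± 0.06, adjusted p = 0.388), and its sign turned with libraries scaled by totals alone (0.01). Sdc4, which also signals from focal adhesions, measured 259, 326 and 293 CPM against 272, 268 and 268 CPM (-0.12 ± 0.08, adjusted p = 0.311). Groups overlapped for both. Per kilobase of the longest transcript, Sdc3 made up 43.8%, 48.7% and 39.7% of the syndecan total in control and 32.6%, 32.2% and 32.9% in verapamil libraries. Over the same libraries the share of Sdc4 went from 21.4% to 26.1% in control to 29.8% to 31.3%, and the order at control, Sdc3, Sdc4, Sdc2, Sdc1 by mean level per kilobase, held with verapamil down to its last 2 places, where Sdc1 stood above Sdc2. In control, Sdc2 and Sdc1 (90.8 ± 14.0 and 78.0 ± 3.01 CPM per kilobase, SD, n = 3) overlapped within their spread.

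Glypicans are held in the outer leaflet by a lipid anchor. Gpc1 (Entrez 14733, chromosome 1, 92831645 to 92860211) fell from 311, 283 and 321 CPM to 168, 180.0 and 184 CPM (-0.78 ± 0.07, adjusted p = 2.82e-04), with no overlap. Gpc4 fell from 80.2, 99.5 and 82.9 CPM to 68.9, 73.5 and 69.3 CPM (-0.31 ± 0.09, adjusted p = 0.0256), a call lost without verapamil replicate 1, 2 or 3 (adjusted p = 0.0594 to 0.0928). Gpc6 measured 105, 104 and 109.5 CPM against 95.3, 103 and 92.9 CPM (-0.13 ± 0.06, adjusted p = 0.107). Gpc1 thus had the lower verapamil values by the widest margin of the 3 abundant glypicans. Gpc2 was at 2.08 to 2.56 CPM in all libraries and did not pass, and Gpc3 and Gpc5 had at most 9 reads in any library. Gpc1 shares 977 exonic bases with Ankmy1 on the opposite strand, and reads from those bases cannot be assigned to either gene here. Some members share exonic bases with genes absent from the count table. Sdc3 shares 415 with the antisense Gm26716, Chst15 shares 1206 with the antisense Gm10584, and Gpc2 shares 2376 with Gm43720 on its own strand.

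Both large matrix proteoglycans fell. Perlecan, the heparan sulfate proteoglycan of basement membranes encoded by Hspg2 (Entrez 15530, chromosome 4, 137468751 to 137570630), went from 582, 648 and 568 CPM to 346, 348 and 399.9 CPM (-0.72 ± 0.08, adjusted p = 7.98e-04). Versican, the chondroitin sulfate proteoglycan that binds hyaluronan (Vcan, Entrez 13003, chromosome 13, 89655309 to 89743027), went from 298, 289 and 303 CPM to 204, 212 and 238 CPM (-0.45 ± 0.07, adjusted p = 0.00252). In neither gene did the groups overlap. Taking all 12 core protein genes, 6 of 10 tested fell, none rose and 4 did not pass, with a median of -0.38.

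**Figure D2:**
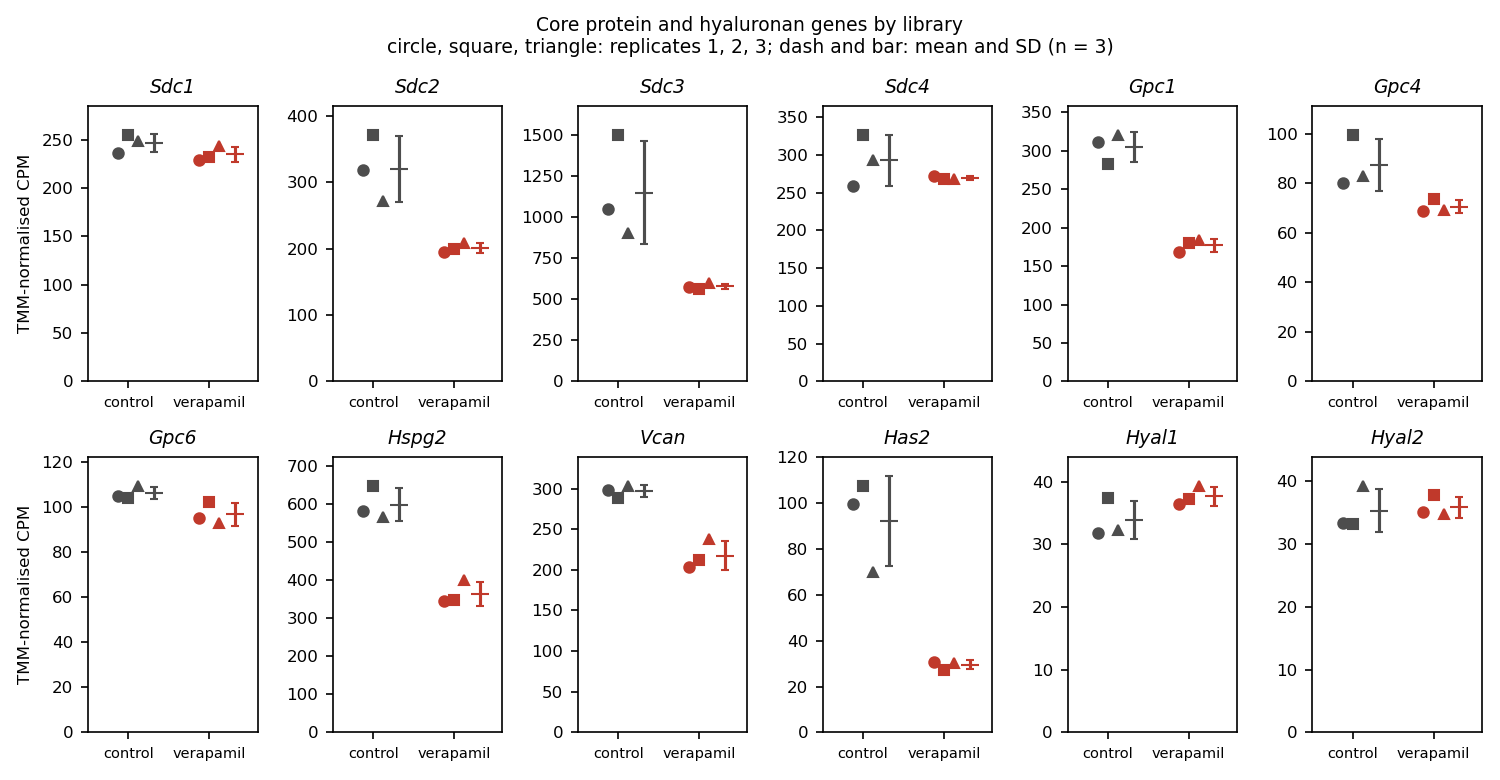
TMM-normalised CPM (y axis, from 0) of 12 core protein and hyaluronan genes in each control (grey) and verapamil (red) library. Symbols mark replicates 1, 2 and 3, and the dash with its bar is the mean ± SD (n = 3). Sdc3 spreads from 902 to 1501 in control and from 566 to 599 with verapamil, while Sdc1, Sdc4, Hyal1 and Hyal2 overlap between groups.

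**Figure D3:**
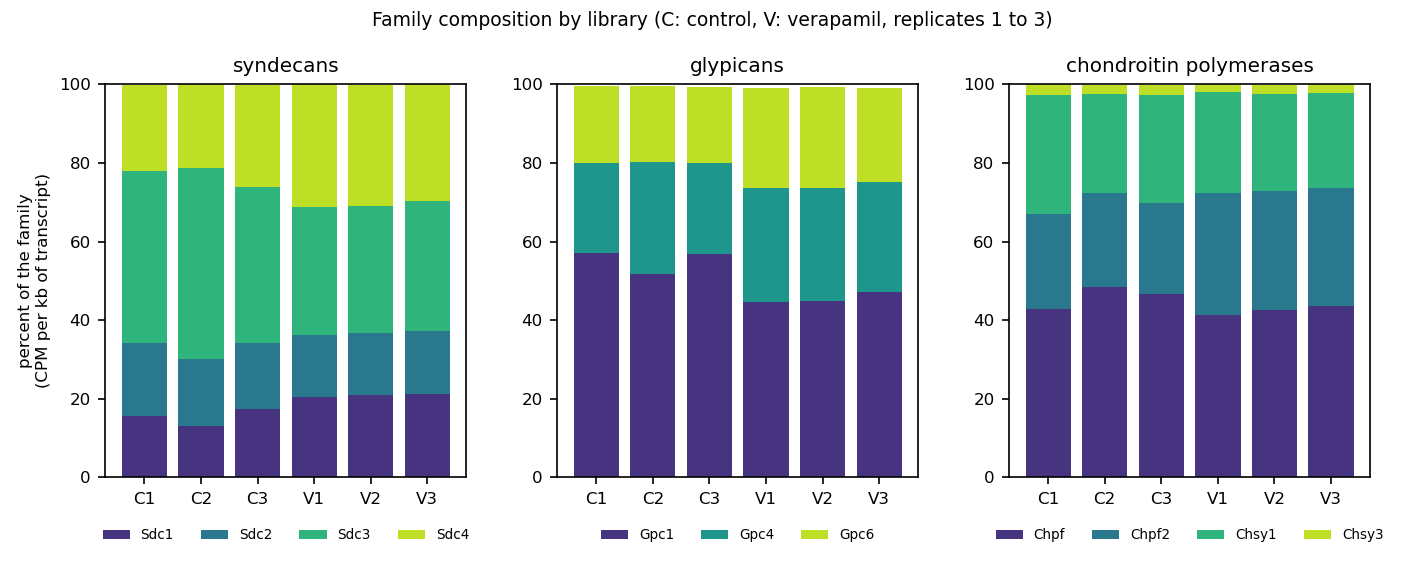
Share of each gene in the summed level of its family, in percent of CPM per kilobase of transcript (y axis), for control (C1 to C3) and verapamil (V1 to V3) libraries. Members with a mean control share of 1% or less are not drawn. Sdc3 takes 39.7% to 48.7% of the syndecan bar in control and 32.2% to 32.9% with verapamil.

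Chain initiation showed a small rise in its minor enzyme. Xylt1 measured 4.93, 3.69 and 4.69 CPM in control and 5.90, 7.08 and 5.57 CPM in verapamil libraries (0.48 ± 0.15, adjusted p = 0.0463). Its call was lost in all leave-one-out fits but that without control replicate 3 (adjusted p = 0.0697 to 0.179), in DESeq2 (adjusted p = 0.0696) and in the replicate block (adjusted p = 0.0991). Xylt2 measured 40.9, 48.6 and 44.5 CPM against 39.2, 40.6 and 41.8 CPM (-0.14 ± 0.07, adjusted p = 0.190), with overlap. Per kilobase Xylt2 made up 95.6%, 97.2% and 96.1% of the pair in control and 94.6%, 93.8% and 95.2% with verapamil.

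Of 5 heparan sulfate polymerase genes, 3 fell, none rose and 2 did not pass, with a median of -0.44. EXT1 and EXT2 form the complex that extends the chain. Ext1 (Entrez 14042, chromosome 15, 53068261 to 53346183) fell from 218, 220.3 and 188 CPM to 145, 139.6 and 142 CPM (-0.55 ± 0.07, adjusted p = 0.00108). Its partner Ext2 fell from 127, 145 and 135 CPM to 114, 111 and 118 CPM (-0.24 ± 0.06, adjusted p = 0.0187), a call lost without verapamil replicate 1 or 2 (adjusted p = 0.0710 and 0.0814), with libraries scaled by totals alone (adjusted p = 0.0649) and in the replicate block (adjusted p = 0.0584). Extl3, whose product starts heparan sulfate on the linker, fell from 183, 171 and 179 CPM to 127, 133 and 132 CPM (-0.44 ± 0.05, adjusted p = 8.68e-04). All 3 genes kept their groups apart.

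Extl2 encodes a transferase that can cap the linker. It measured 39.7, 35.6 and 45.6 CPM in control and 46.4, 49.7 and 45.4 CPM in verapamil libraries (0.23 ± 0.09, adjusted p = 0.0939), and passed only without control replicate 3 (adjusted p = 0.0114). Within each library, the ratio of Extl2 to Extl3 per kilobase was 0.436, 0.417 and 0.510 in control and 0.733, 0.750 and 0.688 with verapamil. The groups did not overlap in that ratio, which was not tested. Extl3 alone already kept them apart, so the ratio adds no separate evidence. Extl1, at 0.36 to 0.75 CPM, did not pass.

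Of 15 genes that modify heparan sulfate, 7 were tested, 3 fell, 1 rose and 3 did not pass, with a median of -0.17. N-deacetylase/N-sulfotransferases act first, and Ndst1 fell from 179, 171 and 181 CPM to 153, 159 and 159 CPM (-0.17 ± 0.05, adjusted p = 0.0350). Without control replicate 1 or 3, or without any 1 verapamil library, it was no longer past the test (adjusted p = 0.0547 to 0.140), nor was it without the low-count filter, with totals alone or in the replicate block (adjusted p = 0.0552, 0.277 and 0.120). Ndst2 measured 40.1, 41.7 and 40.5 CPM against 40.8, 45.1 and 39.6 CPM (0.04 ± 0.07, adjusted p = 0.696). Ndst3 and Ndst4 had at most 11 reads in any library.

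The epimerase and the 2-O-sulfotransferase, which act in turn on uronic acid, both fell. Glce went from 45.3, 49.0 and 33.6 CPM to 27.1, 31.8 and 31.3 CPM (-0.50 ± 0.14, adjusted p = 0.0306). Control replicate 3 came close to the verapamil libraries, and the call was lost in every leave-one-out fit save that without control replicate 3 (adjusted p up to 0.103). Hs2st1 went from 119, 120.0 and 111 CPM to 95.3, 90.7 and 93.7 CPM (-0.33 ± 0.05, adjusted p = 0.00331), with no overlap.

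Both 6-O-sulfotransferases had higher values with verapamil, and 1 passed. Hs6st2 (Entrez 50786, chromosome X, 51386637 to 51681705) rose from 13.4, 13.7 and 15.3 CPM to 16.6, 16.8 and 17.9 CPM (0.28 ± 0.09, adjusted p = 0.0394). That call was lost without any 1 library other than control replicate 3 (adjusted p = 0.0574 to 0.143), in DESeq2 (adjusted p = 0.0832) and in the replicate block (adjusted p = 0.0732). Hs6st1 measured 37.7, 37.3 and 39.4 CPM against 43.4, 46.3 and 41.2 CPM (0.19 ± 0.06, adjusted p = 0.0510), just outside the threshold, and passed with upper quartile factors (adjusted p = 0.0383), with totals alone (adjusted p = 0.0240), with the stricter filter (adjusted p = 0.0483) and without control replicate 3 (adjusted p = 0.0460). Neither gene overlapped between groups. The ratio of Hs6st1 to Hs2st1 per kilobase was 0.525, 0.517 and 0.587 in control and 0.757, 0.848 and 0.730 with verapamil, with no test. Each of the genes alone already kept the groups apart, in opposite directions, so this ratio adds no separate evidence.

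The 3-O-sulfotransferases, which make the antithrombin site among others, had low counts. Hs3st3b1 was the 1 tested, at 0.49 to 1.17 CPM (-0.64 ± 0.37, adjusted p = 0.220). Hs3st6 had 7, 9 and 2 reads in control and 0, 0 and 1 in verapamil libraries, and Hs3st1 had 7, 8 and 2 against 1, 6 and 1. Hs3st2, Hs3st3a1, Hs3st4 and Hs3st5 stayed under 0.32 CPM. These depths allow no statement on a difference.

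Sulf1 and Sulf2 encode secreted sulfatases that take 6-O-sulfate off finished chains. Sulf1 measured 97.6, 101 and 95.1 CPM against 102, 113 and 102 CPM (0.10 ± 0.06, adjusted p = 0.224), and passed with totals alone (adjusted p = 0.0448). Sulf2 measured 215, 221 and 253 CPM against 217, 229 and 234 CPM (-0.02 ± 0.07, adjusted p = 0.862), with a sign that turned with totals alone, without control replicate 3 and without verapamil replicate 1.

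**Figure D4:**
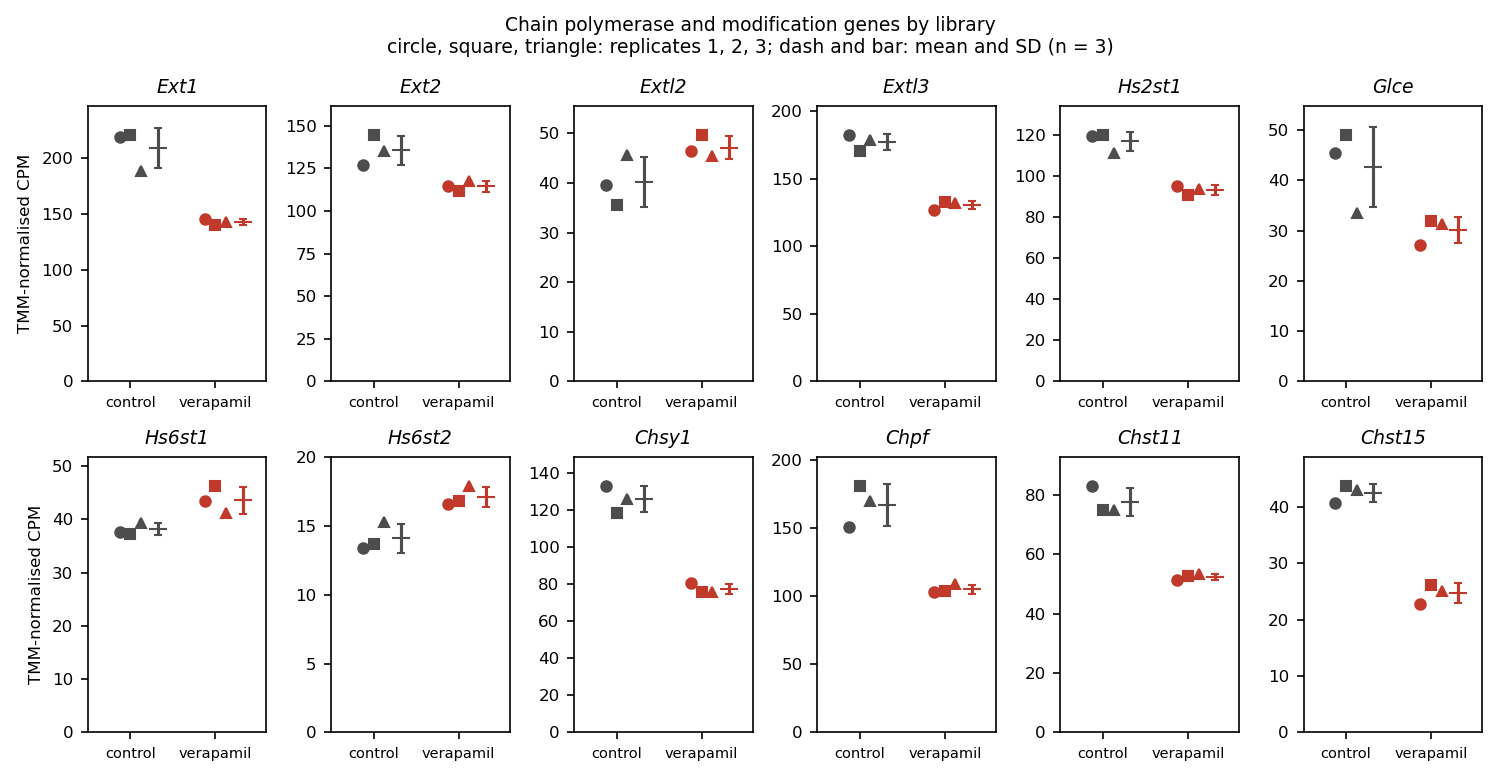
TMM-normalised CPM (y axis, from 0) of 12 genes for heparan sulfate and chondroitin sulfate chains in each control (grey) and verapamil (red) library. Symbols mark replicates 1, 2 and 3, and the dash with its bar is the mean ± SD (n = 3). Ext1, Chsy1, Chpf, Chst11 and Chst15 lie lower in each verapamil library, and Hs6st2 lies higher.

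All 5 genes for chondroitin and dermatan chains fell, with no overlap in any. Chsy1 (Entrez 269941, chromosome 7, 66109492 to 66173798), a chondroitin synthase, went from 133, 119 and 126 CPM to 80.4, 75.6 and 75.7 CPM (-0.71 ± 0.06, adjusted p = 2.82e-04). Its rarer relative Chsy3 went from 13.4, 11.9 and 12.8 CPM to 6.49, 8.21 and 7.41 CPM (-0.78 ± 0.11, adjusted p = 0.00186). Chpf, the polymerising factor that partners the synthases, went from 150.5, 181 and 169.8 CPM to 103, 104 and 109 CPM (-0.67 ± 0.07, adjusted p = 6.25e-04). These 3 calls held in every alternative fit.

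Smaller falls were seen in Chpf2 and in Dse, the epimerase that turns chondroitin into dermatan. Chpf2 went from 138, 143 and 135 CPM to 123, 119 and 121 CPM (-0.19 ± 0.05, adjusted p = 0.0225). Dse went from 200.5, 179.9 and 201 CPM to 161, 167 and 169 CPM (-0.23 ± 0.06, adjusted p = 0.0243). Both calls were lost without control replicate 1, without any 1 verapamil library (adjusted p = 0.0577 to 0.105), with totals alone (adjusted p = 0.134 and 0.166) and in the replicate block (adjusted p = 0.0895 and 0.0744). Chpf2 shares 2466 exonic bases with Smarcd3 on the opposite strand.

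Of 13 Chst sulfotransferase genes, 10 were tested, 4 fell, none rose and 6 did not pass, with a median of -0.52. Chst11, which places 4-O-sulfate on chondroitin, fell from 82.9, 74.8 and 75.0 CPM to 51.3, 52.6 and 53.2 CPM (-0.57 ± 0.06, adjusted p = 5.89e-04). Chst15 (Entrez 77590, chromosome 7, 132235779 to 132323534), which adds a further sulfate to that unit, fell from 40.7, 43.7 and 42.9 CPM to 22.9, 26.2 and 25.2 CPM (-0.78 ± 0.07, adjusted p = 3.42e-04). The 6-O-sulfotransferase of chondroitin, Chst3, fell from 7.14, 5.98 and 8.91 CPM to 3.93, 5.37 and 3.86 CPM (-0.74 ± 0.19, adjusted p = 0.0188), but not without control replicate 1 or verapamil replicate 1 or 3 (adjusted p = 0.0612 to 0.0783). Chst2, which sulfates N-acetylglucosamine of other glycans, fell from 52.6, 50.9 and 57.1 CPM to 33.9, 34.9 and 38.8 CPM (-0.58 ± 0.07, adjusted p = 0.00117).

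The sulfotransferases that did not pass included a 4-O-enzyme of chondroitin and the one of dermatan. Chst12, the former, measured 56.2, 64.3 and 57.6 CPM against 55.3, 49.1 and 51.4 CPM (-0.19 ± 0.07, adjusted p = 0.0788). Chst14, the latter, measured 32.9, 40.9 and 32.6 CPM against 31.5, 34.0 and 32.7 CPM (-0.11 ± 0.09, adjusted p = 0.398). The ratio of Chst11 to Chst12 per kilobase was 0.622, 0.491 and 0.549 in control and 0.391, 0.452 and 0.436 with verapamil. Chst1, Chst7, Chst10 and Chst13 lay between 0.27 and 4.97 CPM and did not pass, and Chst5, Chst8 and Chst9 were not tested.

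Hyaluronan synthesis showed the largest fall among the 45 tested members. Has2 (Entrez 15117, chromosome 15, 56665627 to 56694546), encoding the main synthase of mesenchymal cells, measured 99.4, 107 and 70.1 CPM in control and 30.8, 27.2 and 30.3 CPM in verapamil libraries. The lowest control stood at more than any verapamil library, and Has2 fell by 68.1% (-1.65 ± 0.16, adjusted p = 6.19e-04). It was the only member to pass at an absolute log2 fold change of at least 1. Control replicates ranked 2, 1, 3 in Has2, and also in the hypoxia, osteoblast and chondrocyte sums. What this shared order marks was not tested. The Has2 difference was -1.53 without control replicate 2. Has2 made up 98.7% to 99.3% of the synthases per kilobase in control and 96.9% to 97.5% with verapamil. Has1 had 6, 4 and 3 reads against 0, 0 and 1, and Has3, at 0.75 to 1.38 CPM, did not pass (0.35 ± 0.26, adjusted p = 0.337). Exons of Has2 and its antisense transcript Has2os share 182 bases.

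Neither tested hyaluronidase passed. Hyal1 measured 31.9, 37.4 and 32.3 CPM against 36.5, 37.2 and 39.3 CPM (0.16 ± 0.08, adjusted p = 0.158), and passed with totals alone (adjusted p = 0.0292) and without control replicate 2 (adjusted p = 0.0177). Hyal2 measured 33.4, 33.2 and 39.3 CPM against 35.1, 37.8 and 34.8 CPM (0.02 ± 0.08, adjusted p = 0.856), and its sign turned without control replicate 1 or 2 or verapamil replicate 2. Per kilobase, the ratio of Has2 to Hyal2 was 2.08, 2.26 and 1.25 in control and 0.616, 0.503 and 0.611 with verapamil. Has2 alone already kept the groups apart, so this ratio adds no separate evidence, and it was not tested. Among other ratios taken, those of Hs6st1 to Sulf1, Chsy1 to Chpf and Glce to Ndst1 overlapped between groups. Hyal1, Hyal3 and Naa80 share exonic bases on the same strand, 1920 of them between Hyal1 and Naa80, so how reads were divided among them is uncertain.

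**Figure D5:**
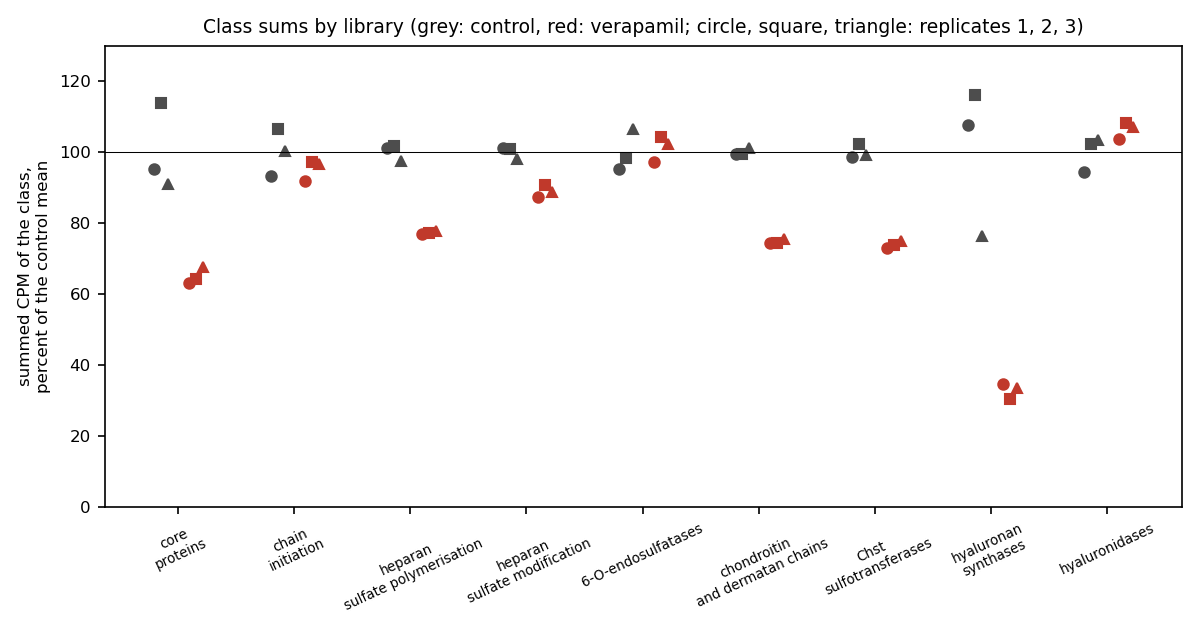
Summed CPM of each functional class in each library, in percent of the control mean (y axis, from 0), for control (grey) and verapamil (red) replicates 1 (circle), 2 (square) and 3 (triangle). Hyaluronan synthases lie lowest with verapamil, and the endosulfatases and chain initiation enzymes overlap between groups.

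Summed over each class, core proteins came to 3240, 3880 and 3102 CPM in control and 2153, 2183 and 2305 CPM with verapamil. Chondroitin and dermatan chain genes came to 635, 634 and 645 CPM against 474, 474 and 482 CPM, and Chst genes to 282, 292 and 283 CPM against 208, 210.4 and 214 CPM. Heparan sulfate polymerases came to 568.5, 572.1 and 548.5 CPM against 433.1, 433.8 and 438 CPM. The modifying enzymes of that chain came to 436.7, 435.9 and 423.2 CPM against 377.2, 391.3 and 383.5 CPM. Endosulfatases overlapped between groups, at 312 to 349 CPM in control and 319 to 341 CPM with verapamil. The sums are descriptions with no test.

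Within the controls, the members did not vary alike. Control replicate 2 was the highest control in 12 of the 22 members that fell, replicate 3 in 6 and replicate 1 in 4. In 8 of the 22 the controls followed the order 2, 1, 3. The hypoxia, osteoblast and chondrocyte marker sums all had that order, as did the summed core proteins. The order of controls was not counted over all genes tested, so these counts have no background to set them against. The coefficient of variation in control was 27.2% for Sdc3, 21.2% for Has2 and 18.9% for Glce, beside 2.99%, 6.68% and 8.67% with verapamil. Vcan and Chpf2, which also fell, varied by 2.40% and 2.86% among controls. In 17 of the 22 members that fell, this coefficient was larger in control than with verapamil, which was likewise not counted over all genes tested. The part of the hypoxia, osteoblast or chondrocyte genes here was not tested.

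Most genes that supply these enzymes did not pass. In a list of 22 tested genes for the linker sugars, nucleotide sugars and sulfate, 4 fell, none rose and 18 did not pass, with a median of -0.10. That share lower is near the 16.3% of all genes tested. Ugdh, which makes the UDP-glucuronate that hyaluronan, heparan sulfate and chondroitin all need, fell from 204, 242 and 185 CPM to 138, 130.0 and 134 CPM (-0.65 ± 0.09, adjusted p = 0.00182). Papss2, which makes the sulfate donor, fell from 50.8, 48.9 and 42.4 CPM to 35.1, 33.8 and 37.7 CPM (-0.41 ± 0.08, adjusted p = 0.00706). Pxylp1, the phosphatase that releases the linker for extension, fell from 94.0, 112 and 71.4 CPM to 52.8, 52.1 and 61.7 CPM (-0.73 ± 0.16, adjusted p = 0.0142), but not without verapamil replicate 1 or 2 (adjusted p up to 0.0562). The linker galactosyltransferase B3galt6 fell (-0.32 ± 0.10, adjusted p = 0.0460), a call kept in 1 of 6 leave-one-out fits. B3galt6 also did not pass with upper quartile factors (adjusted p = 0.0540), totals alone (0.133), no low-count filter (0.0675), the replicate block (0.116) or DESeq2 (0.116). The list held 2 lower genes without verapamil replicate 1 or 2.

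Chondroitin genes outside the symbol rule were 4, of which 3 fell and 1 rose (16.3% and 15.4% of all genes tested). The dermatan epimerase Dsel fell from 60.7, 50.2 and 56.3 CPM to 34.7, 39.5 and 38.9 CPM (-0.56 ± 0.09, adjusted p = 0.00229), and the uronyl 2-O-sulfotransferase Ust fell (-0.52 ± 0.10, adjusted p = 0.00583). The chain starters differed in sign. Csgalnact2 fell (-0.26 ± 0.06, adjusted p = 0.0131), but not without control replicate 1, verapamil replicate 1 or verapamil replicate 3 (adjusted p up to 0.0626) or with totals alone (adjusted p = 0.0794), while Csgalnact1 rose (0.25 ± 0.08, adjusted p = 0.0403), a call kept only without control replicate 3 among the 6 leave-one-out fits and lost in DESeq2 (adjusted p = 0.0595) and in the replicate block (adjusted p = 0.0966).

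In a list of other proteoglycan cores, 7 of 10 tested were lower (16.3% of all genes tested), with none higher (15.4%) and a median of -0.84. The list also counts Smoc1 and Smoc2, matrix proteins that are not proteoglycan cores. Smoc2 (-0.84 ± 0.22, adjusted p = 0.0276) was 1 of the 7. Cspg4, the NG2 proteoglycan of pericytes and progenitors, fell from 30.9, 36.8 and 23.7 CPM to 11.5, 11.2 and 12.3 CPM (-1.38 ± 0.15, adjusted p = 7.98e-04). Bcan (-1.28 ± 0.20), at only 0.99 to 2.94 CPM, and Spock2 (-1.03 ± 0.18) fell too. The more abundant Agrn (-0.78 ± 0.13) and Col18a1 (-0.85 ± 0.10) also fell. Ptprz1, at 0.64 to 2.16 CPM, fell (-1.09 ± 0.28, adjusted p = 0.0185). Its call was lost without control replicate 1 or verapamil replicate 1 or 3 (adjusted p up to 0.0775) and in the replicate block (adjusted p = 0.0524). Aggrecan (Acan), the cartilage core, was not tested, at no more than 0.33 CPM.

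Among breakdown genes, more rose than fell. Of 16 tested, 7 rose, 2 fell and 7 did not pass, with a median of 0.13. Over all genes tested, 15.4% rose and 16.3% fell. Heparanase (Hpse), which cuts heparan sulfate, rose from 39.6, 43.5 and 41.3 CPM to 67.8, 66.0 and 62.2 CPM (0.66 ± 0.06, adjusted p = 3.91e-04). The lysosomal β-glucuronidase Gusb rose from 346, 330.2 and 389.8 CPM to 615, 672 and 594 CPM (0.82 ± 0.08, adjusted p = 5.17e-04). Macrophage markers were higher in these libraries, as given above, and their part in these rises was not tested. The number that rose was 4 without verapamil replicate 1 or 2.

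Both genes that fell in that list act on hyaluronan outside the lysosome. Cemip, needed for hyaluronan depolymerisation by fibroblasts, fell from 32.2, 23.6 and 24.6 CPM to 16.7, 14.7 and 15.0 CPM (-0.79 ± 0.13, adjusted p = 0.00282). Its membrane-bound relative Cemip2 fell from 173, 169 and 176 CPM to 121, 121 and 117 CPM (-0.53 ± 0.05, adjusted p = 3.75e-04). Has2, Cemip and Cemip2 were thus lower together, while Hyal1 and Hyal2 did not pass.

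Hyaluronan receptors and binders were mixed. Of 14 tested, 4 fell, 1 rose and 9 did not pass, with a median of -0.46, beside 16.3% lower and 15.4% higher over all genes tested. Without control replicate 3, 7 of these 14 fell. Lyve1, a receptor of lymphatic endothelium and some macrophages, fell from 132, 116 and 118 CPM to 43.8, 38.6 and 51.3 CPM (-1.45 ± 0.10, adjusted p = 1.37e-04). Cd44, the main surface receptor, fell from 238, 263 and 195 CPM to 162, 163 and 164 CPM (-0.51 ± 0.10, adjusted p = 0.00695). Hapln1, whose link protein ties versican and aggrecan to hyaluronan, fell from 3.76, 3.90 and 3.35 CPM to 0.27, 0.27 and 0.72 CPM (-3.09 ± 0.32, adjusted p = 5.15e-04). Stab1, a scavenger receptor of macrophages that takes up hyaluronan, rose from 1160, 957 and 1579 CPM to 1847, 1937 and 1780 CPM (0.59 ± 0.17, adjusted p = 0.0306), but not without control replicate 1 or any 1 verapamil library (adjusted p up to 0.110).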

How the data were processed

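Whole-transcriptome RNA sequencing of 6 libraries was analysed from 1 table of estimated counts per gene, deposited by the authors and named read counts per the file headers. They were not scaled to depth or length, and 67.7% were not whole. Build GRCm38 (mm10) is given per the submitters' processing notes. Aligner, counting tool, annotation and strand: not given in the sources used here. Estimated counts were rounded. Genes were filtered with filterByExpr (minimum count 10, minimum total 15), which kept 13366 of 17491. Libraries were scaled with TMM factors and tested with edgeR 4.0.16 in R 4.3.3 (robust quasi-likelihood F test, Benjamini-Hochberg over all genes tested). Each SE was obtained by dividing the size of the log2 fold change by the root of its F. Lengths are those of the longest GENCODE M21 transcript, and coordinates and promoters come from RefSeq for GRCm38.p6, where all 60 members matched by Entrez ID and 46 had a promoter. Motifs were searched on both strands of the first listed window of each gene.

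Members are matched by symbol alone, but the gene group and the lists were chosen with earlier results of these data known. The chondrocyte list shares Acan and Hapln1 with the companion lists. Every member is named. Those called at a mean of at least 5 CPM, and those not called at that level in a class with a call, have their values given, with up to 4 called genes of each companion list by size of change. Alternatives were other scaling, filters, DESeq2 1.42.0, limma-voom (limma 3.58.1), thresholds, unrounded counts, a replicate block, and 1 library omitted at a time.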

Additional observations from a re-analysis of the deposited data

How the results depend on the processing

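Of the 24 called members, 15 passed without each library in turn, all of them lower, and 18 passed in every other fit at the same threshold. The count of changed genes was 4235, and 2236 to 5042 with 1 library left out, 1969 at an adjusted p under 0.01 and 540 with an absolute log2 fold change of at least 1. Members lower were 22, and 15 to 22 with 1 library left out, 15 at an adjusted p under 0.01 and 1 with that fold. Members higher were 2, and 0 to 4 with 1 library left out, 5 with totals alone, and 0 in DESeq2, in the replicate block, at an adjusted p under 0.01 and with that fold. With totals alone, which moved the median of all genes by 0.0796, log2 class ratios were -0.358 for Chst genes, -0.341 for chondroitin and dermatan chains, -0.292 and -0.0894 for heparan sulfate polymerisation and modification, 0.0966 for endosulfatases, 0.168 for hyaluronidases, and 0.00987 for chain initiation, which changed sign. Signs also turned for genes near 0, where the cause was not tested. Chst7 was at 0.01, and at -0.00319 in limma-voom, -0.02965 and -0.005716 without control replicates 1 and 2 and -0.113 without verapamil replicate 1, and up to 0.1004 without verapamil replicate 2. Hyal2 reached 0.1041 without control replicate 3, and was at -0.01555, -0.02393 and -0.01959 without control replicates 1 and 2 and verapamil replicate 2, and Ndst2 at -0.02245 without the last and 0.07433 without verapamil replicate 3. With totals alone Sdc1 was at 0.01066 and Sulf2 at 0.05742, and Sulf2 at 0.0531 and 0.004644 without control replicate 3 and verapamil replicate 1, and down to -0.06747 without control replicate 1. The replicate block lowered the members called lower to 18. Deviations of same-numbered libraries from their group means had correlations of 0.00892, -0.167 and -0.127. With so few libraries per group these cannot show what a shared number marks, which the labels do not give. The low-count filter left 15 members untested.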
